A study of Mus musculus with 4 samples.

Results

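Bnip3, its paralog Bnip3l and other genes of mitophagy were followed in BCR-ABL leukemia stem cells with and without Hif1a. The genes were chosen by name: 10 were listed, and 9 of them had a probe set that maps to their symbol alone, out of 19938 genes measured in this way. The expression of the remaining gene, Optn, was not analysed here. Each gene was represented by the probe set with the highest mean over all 4 arrays, and the list was drawn up knowing that Bnip3 differs between the genotypes, so its difference is given as a description.

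The study used a transplantation model of chronic myeloid leukemia. Donor marrow from mice given 5-fluorouracil was infected with a retrovirus carrying BCR-ABL, the fusion kinase of the disease, and GFP, and it was then given to B6 recipients, so both groups carry BCR-ABL and GFP and both grew in B6 hosts. Donors were C57BL/6 (B6) mice in the WT group and Hif1a-/- mice in the other; the strain of all samples is given as C57BL/6 (B6) and the age as 8 weeks, without a statement of whether donor or recipient is meant. At 14 days after transplantation GFP+ Lin- c-Kit+ Sca-1+ cells of the marrow were sorted, and RNA of 2 WT and 2 Hif1a-/- samples was put on Affymetrix whole-transcript arrays. The labels call the samples biological replicates without naming animals, so the spread between them may be partly technical, and they do not say how Hif1a was deleted. Values are RMA expression on the log2 scale, and with 2 arrays per genotype the number of arrays limits the precision. They are compared only within a probe set, since probe sets of different genes are not on a common scale of amount.

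Mitophagy is the removal of damaged or surplus mitochondria by autophagy. Receptors in the outer mitochondrial membrane, such as BNIP3, BNIP3L (also called NIX) and FUNDC1, bind proteins of the Atg8 family on the growing autophagosome, while the kinase PINK1 marks damaged mitochondria through ubiquitin for adaptors such as SQSTM1 (p62) and OPTN. The ULK1 kinase starts autophagosome formation, and BECN1 belongs to the lipid kinase complex that follows it. BNIP3 is a long-known target of HIF-1, the transcription factor whose oxygen-regulated subunit is encoded by Hif1a, and HIF-1 binds DNA at a core written ACGTG or GCGTG.

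The promoters were looked at because Bnip3 is the gene of the group with a large difference and the deleted gene encodes a DNA-binding factor. The RefSeq promoter table for build GRCm38.p6 matched 8 of the 10 listed genes; Bnip3l and Becn1 had no entry. The 250 bases upstream of each start were searched on both strands for ACGTG and GCGTG, and CACGTG, a palindrome, contributes an ACGTG match on each strand. The core was found in 5 of the 8 windows (Bnip3, Pink1, Map1lc3b, Ulk1 and Optn) and was not found in those of Fundc1, Sqstm1 and Gabarapl1. The windows of Fundc1 and Optn lay wholly inside the RefSeq span of the gene, and that of Ulk1 partly. For Fundc1 and Optn the bases upstream of that span were therefore not searched. Of all 32851 windows of that length, 38.6% held ACGTG or GCGTG. Bnip3 and Map1lc3b had 5 matches each, a number reached or passed by 1.01% of all windows. ACGTG occurred in the window of Bnip3 alone among the 8, inside a CACGTG, against 16.6% of all windows for ACGTG and 6.02% for CACGTG. Both windows are shown for comparison, 5′ to 3′ on the strand of the gene, because they carry equal numbers of matches while only the level of Bnip3 was far apart between genotypes. Capitals mark ACGTG and GCGTG on either strand. The window of Bnip3 is chr7:138909507-138909756 on the minus strand and that of Map1lc3b is chr8:121590188-121590437 on the plus strand.
Bnip3: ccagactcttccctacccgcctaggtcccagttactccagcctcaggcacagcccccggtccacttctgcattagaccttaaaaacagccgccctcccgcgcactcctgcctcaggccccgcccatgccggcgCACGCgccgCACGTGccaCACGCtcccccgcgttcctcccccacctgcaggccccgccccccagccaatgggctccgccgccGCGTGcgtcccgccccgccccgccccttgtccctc
Map1lc3b: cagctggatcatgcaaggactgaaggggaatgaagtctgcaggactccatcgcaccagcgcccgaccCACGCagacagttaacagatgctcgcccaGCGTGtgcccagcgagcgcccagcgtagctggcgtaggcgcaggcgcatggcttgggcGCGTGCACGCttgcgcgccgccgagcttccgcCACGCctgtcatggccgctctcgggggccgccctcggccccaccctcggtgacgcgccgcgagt
Pink1 and Ulk1 had 1 match each, GCGTG in both, shown with 10 bases on either side. They lie at chr4:138326329-138326353 and chr5:110810099-110810123, both on the minus strand.
Pink1: tagcgcccccGCGTGctgcgcagga
Ulk1: gtcccgcctcCACGCagtgcggctg
A match is a run of letters in the reference sequence and does not show that HIF-1 binds there in these cells.

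Among the mitophagy receptors, Bnip3 read far lower without Hif1a. Its probe set read 10.82 and 10.76 on the WT arrays and 9.51 and 9.50 on the Hif1a-/- arrays. The replicates of each genotype lay close together, and the genotypes were well apart. The WT mean was 10.79 ± 0.039 (SD, n = 2), and the mean without Hif1a was 9.50 ± 0.0063 (SD, n = 2). On the log2 scale the difference came to -1.29 ± 0.12 (SE; 95% interval from -1.57 to -1.0), which is a level 2.44-fold lower. Of all 19938 genes, 5 had a difference at least as negative, among them Bnip3 and the mast cell proteases Mcpt1, Mcpt2 and Mcpt4. A difference at least as large in either direction was found for 7. The difference between the WT arrays was -0.055 for Bnip3, and 154 genes differed more between the WT arrays than Bnip3 did between genotypes.

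A second probe set for Bnip3 read 9.49 and 9.55 in WT and 8.50 and 8.65 in Hif1a-/- cells. These groups did not overlap either, and the difference was -0.95 ± 0.12 (SE), a level 1.93-fold lower. The table gives no probe positions, so it could not be said which part of the transcript each probe set reads. In the genes here with 1 probe set, set numbers rose in the order of chromosomes 11, 4, 5, 6 and X. The second Bnip3 set fell between chromosomes 6 and X, as a gene on chromosome 7 may. The first set fell between chromosomes 11 and 4, so it may read a near-identical copy elsewhere in the genome. The 2.44-fold value, the rank and the profile neighbours of Bnip3 rest on that first set. In RNA from a sorted population, fewer cells that express a gene and less of its RNA per cell cannot be told apart.

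**Figure D1:**
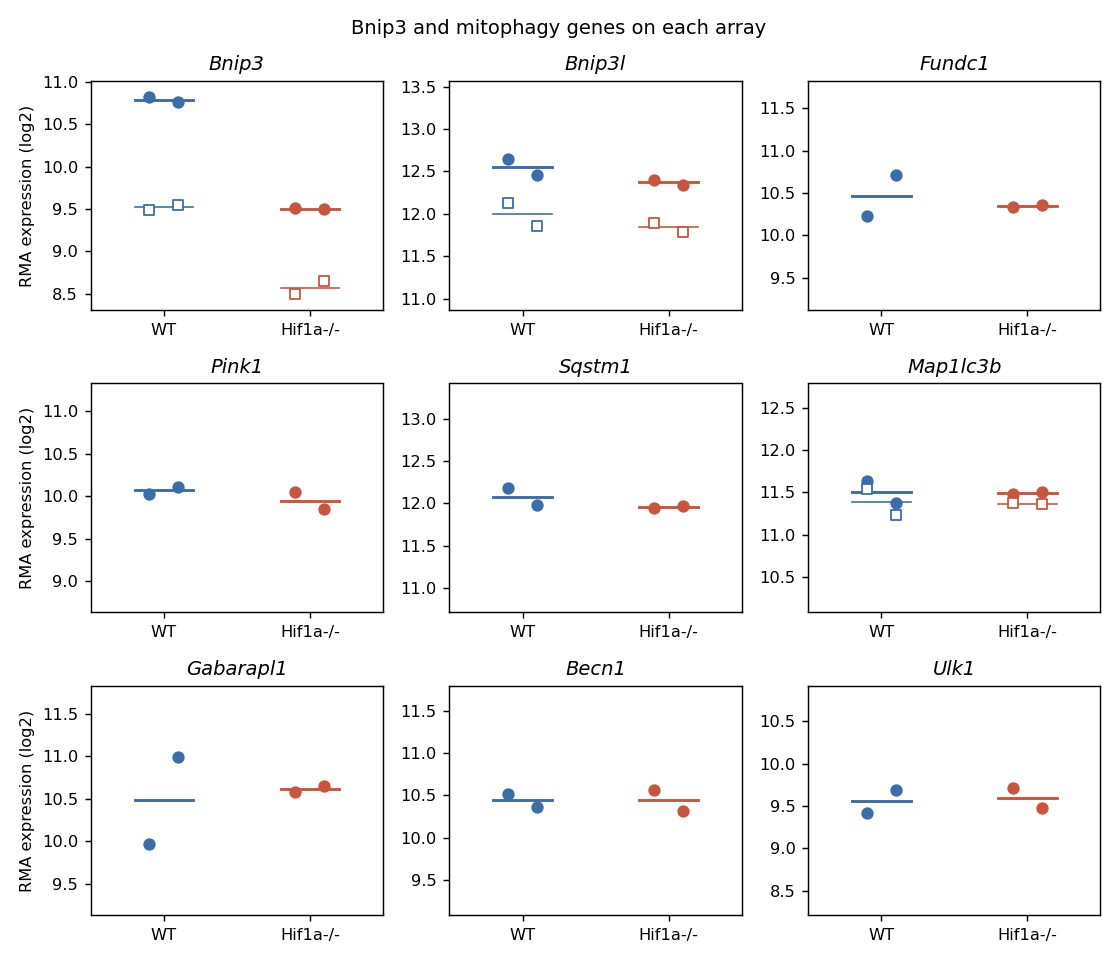
RMA expression (log2) of the 9 measured genes on the WT (blue) and Hif1a-/- (red) arrays, each point 1 array and each line a mean of 2; filled circles are the probe set with the highest mean, open squares a second one, and the vertical axis differs between panels. Bnip3 read 10.82 and 10.76 in WT against 9.51 and 9.50 in Hif1a-/- cells, while Gabarapl1 read 9.97 and 10.99 on the WT arrays themselves.

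The paralog Bnip3l, a receptor known for clearing mitochondria from maturing red cells, read 12.64 and 12.46 in WT and 12.40 and 12.34 in Hif1a-/- cells. Both Hif1a-/- arrays were lower, but the nearest values of the genotypes were closer together than the WT arrays were to each other. Its difference was -0.18 ± 0.13 (SE), with a 95% interval from -0.49 to 0.14, and a second probe set, with groups that overlapped, differed by -0.16. Without WT replicate 1 the difference was -0.088. Fundc1, a receptor whose activity is set by phosphorylation, read 10.23 and 10.71 in WT and 10.33 and 10.36 in Hif1a-/- cells, so both Hif1a-/- values lay between the WT values. Its difference was -0.12, with a 95% interval from -0.55 to 0.31, and 0.12 without WT replicate 2.

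Fundc1 lies on the X chromosome, and the arrays differed in sex-linked genes, whose part in the result was not tested. Xist, the RNA of the inactive X, read 7.12 and 7.76 in WT and 6.68 and 11.56 in Hif1a-/- cells. The Y-linked Eif2s3y read 9.99 and 10.15 in WT and 10.18 and 7.89 in Hif1a-/- cells. Hif1a-/- replicate 2 therefore stood apart from the other 3 arrays in both, and the labels give no sex. Without that array Bnip3 differed by -1.28 and Fundc1 by -0.13.

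Pink1, the kinase that marks damaged mitochondria, read 10.03 and 10.11 in WT and 10.05 and 9.85 in Hif1a-/- cells, with overlapping groups. The difference was -0.12, with a 95% interval from -0.44 to 0.20, and -0.019 without Hif1a-/- replicate 2. Sqstm1, the adaptor p62 that ties ubiquitin-marked cargo to the Atg8 family, read 12.18 and 11.98 in WT and 11.95 and 11.97 in Hif1a-/- cells. The Hif1a-/- arrays were lower, but WT replicate 2 was nearly level with them. Its difference was -0.12, with a 95% interval from -0.44 to 0.20, and -0.014 without WT replicate 1.

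The Atg8 proteins coat the autophagosome and are what the receptors bind. Map1lc3b, which encodes LC3B, read 11.64 and 11.37 in WT and 11.48 and 11.50 in Hif1a-/- cells. Both Hif1a-/- values lay between the WT values, and the difference was -0.015, with a 95% interval from -0.35 to 0.32. A second probe set gave -0.022, and without WT replicate 1 the first gave 0.12. Gabarapl1, of the GABARAP branch, read 9.97 and 10.99 in WT and 10.58 and 10.65 in Hif1a-/- cells. The WT arrays were thus 1.02 apart, with both Hif1a-/- arrays between them. The difference was 0.14 ± 0.31 (SE), with a 95% interval from -0.61 to 0.88. It was -0.38 without WT replicate 1 and 0.65 without WT replicate 2. With 1 WT array left, the spread comes from the Hif1a-/- arrays alone, which were 0.065 apart, so no weight is put on limma's call in the latter case (adjusted p of 0.00524).

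The WT arrays also differed in markers of other blood cells. Gabarapl1 was higher on WT replicate 2, and these markers went either way. Ly6g, a neutrophil surface marker that a lineage gate removes, read 13.10 and 10.64 on WT replicates 1 and 2 and 11.74 and 11.64 in Hif1a-/- cells. In the myeloid list Itgam, S100a8, S100a9, Ltf and Camp were also lower on WT replicate 2. Its other genes went the opposite way between the WT arrays, such as Mpo, an early granule enzyme, at 12.97 and 13.67, and Elane at 13.43 and 13.77. Cd34, a stem and progenitor marker, read 10.31 and 12.29 in WT and 10.70 and 11.70 in Hif1a-/- cells. Over the 9 measured genes of this list the summed level on the linear scale ran from 52783 to 74169 in WT and from 61581 to 66858 in Hif1a-/- cells. That sum mixes genes that went opposite ways. Groups overlapped in 9 of 9, as in 15003 of all 19938 genes. The lowest RMA value in the table was 3.07, and no level below which a gene counts as absent was set. The 9 measured lineage markers had 4 lower and 5 higher means, and their summed level ran from 7867 to 17376 in WT and from 9478 to 10285 in Hif1a-/- cells. Kit, which the sort gate requires, read between 10.32 and 11.07 on the 4 arrays, and the Sca-1 gene Ly6a had no probe set of its own symbol. The part of these markers in the spread of Gabarapl1 was not tested.

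Ulk1, the initiating kinase, read 9.42 and 9.69 in WT and 9.71 and 9.47 in Hif1a-/- cells. Becn1, a subunit of the class III PI3 kinase complex, read 10.52 and 10.36 in WT and 10.56 and 10.32 in Hif1a-/- cells. In both genes the groups overlapped, and the replicates of a genotype were further apart than the genotype means. The difference was 0.035 for Ulk1, with a 95% interval from -0.34 to 0.41, and it was -0.10 without WT replicate 1 and -0.08 without Hif1a-/- replicate 1. For Becn1 it was -0.0034, with a 95% interval from -0.35 to 0.34, and it was 0.076 without WT replicate 1 and 0.11 without Hif1a-/- replicate 2.

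**Figure D2:**
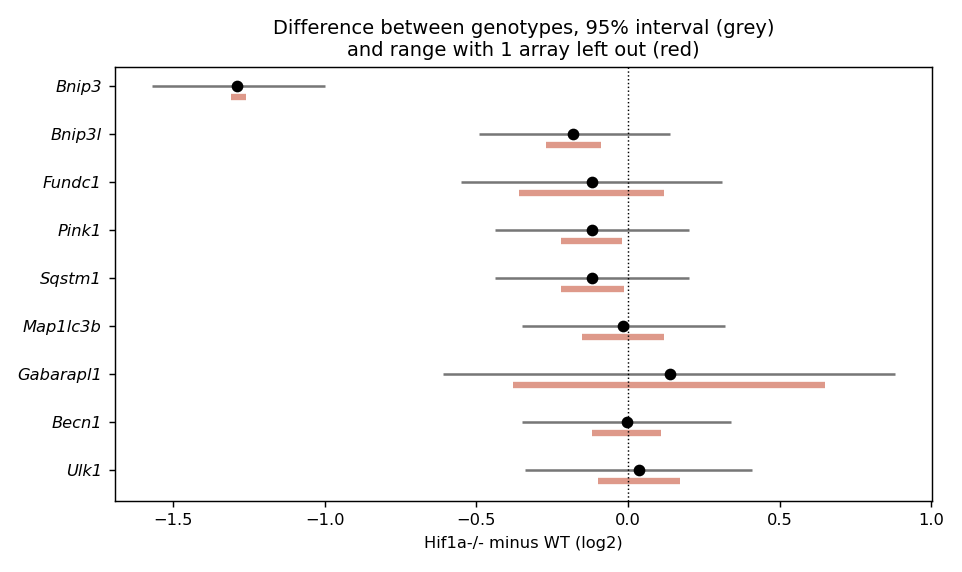
Difference between genotypes (Hif1a-/- minus WT, log2) of the 9 genes: black points are the estimates from 2 arrays per genotype, grey lines limma's 95% intervals, and red bars the range when each of the 4 arrays is left out in turn. The interval of Bnip3 runs from -1.57 to -1.0, and those of the other 8 genes include 0.

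Over the whole table limma called 0 genes at a Benjamini-Hochberg adjusted p under 0.05, which is 0.00% of 19938, so 0 of the 9 genes were called; an unadjusted p under 0.05 was found for 334 genes, 1.68%, with 0.978% lower and 0.697% higher. Limma called 349 genes without WT replicate 1 and 1442 without WT replicate 2, Bnip3 among them in both. In these fits the lone WT array is assumed to vary like the Hif1a-/- arrays, which alone give the spread, so the calls support nothing on Bnip3. Among the 8 genes other than Bnip3 limma's smallest unadjusted p was 0.218, and their adjusted p was 0.999 at the smallest. Their 95% intervals reached down to -0.61 (Gabarapl1), -0.55 (Fundc1) and, in the other 6, to values between -0.49 and -0.34. All 8 intervals also included 0, and the number of arrays, 2 per genotype, limits their precision.

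The mean without Hif1a was below that of WT in 7 of the 9 genes and above it in 2 (Gabarapl1 and Ulk1), where 38.6% of all genes lay below and 61.4% above. That background depends on the scaling: it was 47.2% after a second quantile normalization, with 5 of the 9 genes lower. In 3 of the 9 (Bnip3, Bnip3l and Sqstm1) the genotypes did not overlap and Hif1a-/- cells were lower, against 9.05% of all genes, and in 0 were they wholly higher, against 15.7%. The median difference was -0.12 over the 9 genes, -0.066 over the 8 without Bnip3 and 0.034 over all genes. The list includes Bnip3 because of its difference, so these counts describe it and support nothing beyond it. In 7 of the 9 genes, all but Bnip3 and Pink1, the WT arrays differed by more than the genotype means did. Single arrays vary more than means of 2. Over all genes the median absolute difference was 0.19 between the WT arrays and 0.086 between genotypes, so the count is not particular to these genes.

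**Figure D3:**
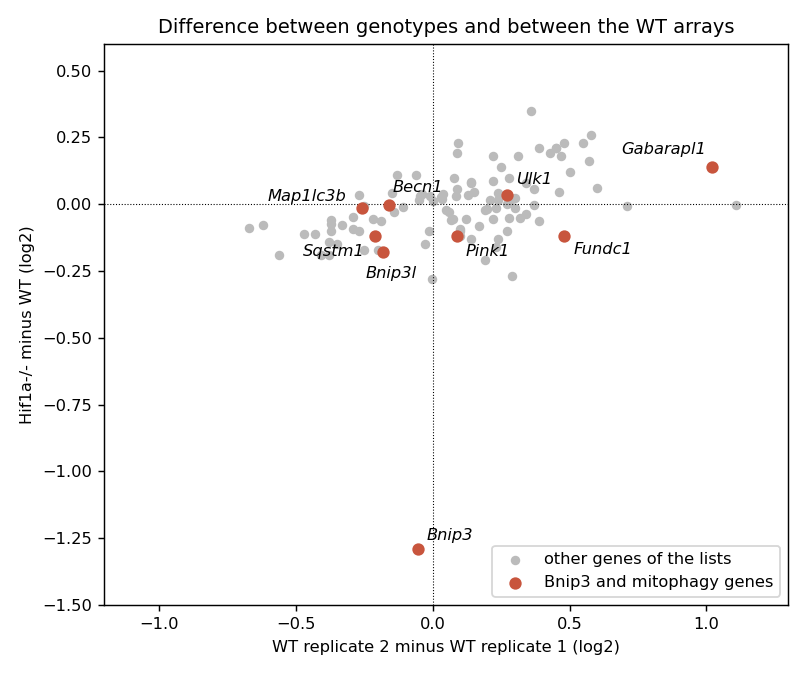
Difference between genotypes (vertical, log2) against the difference between the WT arrays (horizontal, log2) for the 9 genes (red) and the other genes of the lists (grey); both axes use the WT arrays, so the points have no independent axes. Bnip3 lies at -1.29 between genotypes and -0.055 between the WT arrays, and Gabarapl1 at 0.14 and 1.02.

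The wider machinery of mitophagy and autophagy was examined through 8 lists holding 77 genes other than those above, of which 75 were measured. Limma called 0 of the 75, as it called 0 of all genes. At an unadjusted p under 0.05 the number was also 0, against 1.68% of all genes. A lower mean was found in 45 and a higher one in 30, with a median difference of -0.019. Over all genes 38.6% had a lower mean, the share to set beside each list below, and the median was 0.034. After a second quantile normalization 43 of the 75 were lower, against 47.2% of all genes. The genotypes did not overlap in 12 of them, with Hif1a-/- cells lower in 6 and higher in 6, where 9.05% and 15.7% of all genes lay so. The largest difference of the 75 in either direction was 0.35, and 0 of them lay as far below WT as Bnip3. The count with a lower mean was 32 without Hif1a-/- replicate 2 and 54 without Hif1a-/- replicate 1.

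Other receptors and their relatives differed by at most 0.23 with all 4 arrays. Fundc2, a relative of Fundc1, read 10.52 and 10.49 in WT and 10.36 and 10.35 in Hif1a-/- cells, a difference of -0.15 with groups that did not overlap. Bcl2l13, an outer membrane receptor of the Bcl2 family, differed by 0.23, by -0.0074 without Hif1a-/- replicate 1 and by 0.46 without Hif1a-/- replicate 2. Of 5 measured receptors 2 had a lower mean. In the PINK1 and Parkin axis 4 of 10 measured genes had a lower mean, from Usp8, a deubiquitinase of Parkin, at -0.13 to Parl, the protease that cuts PINK1, at 0.18. The gene of Parkin itself, Park2, was not among those measured. Usp8 differed by -0.013 without WT replicate 2 and by -0.26 without WT replicate 1, and Parl by 0.29 and 0.073. Parl read 10.44 and 10.66 in WT and 10.78 and 10.69 in Hif1a-/- cells, the Hif1a-/- arrays being the higher.

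All 7 measured genes listed with the cargo adaptors besides Sqstm1 had a lower mean, against 38.6% of all genes. They ran from Tbk1, the kinase that phosphorylates adaptors, at -0.19 to Calcoco1 at -0.038. Only 1 of the 7 had both Hif1a-/- arrays below both WT arrays, against 9.05% of all genes. Without WT replicate 1 the count with a lower mean was 4 and Tbk1 differed by 0.018. Calcoco1 differed by 0.13 without WT replicate 2 and by 0.058 without Hif1a-/- replicate 1. The other 3 Atg8 genes also had lower means, with -0.17 for Gabarapl2, -0.11 for Map1lc3a, named after its value was seen, and -0.093 for Gabarap. All had overlapping groups, and without WT replicate 1 the mean was lower in 1 of the 3.

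Among 8 genes of the ULK complex and the kinases above it, Rb1cc1, the scaffold FIP200 of that complex, read 9.52 and 9.51 in WT and 9.24 and 9.23 in Hif1a-/- cells. Replicates were almost level and the genotypes apart, with a difference of -0.28 ± 0.12 (SE) and a 95% interval from -0.57 to 0.0054. At the other end Rptor, a subunit of the mTORC1 kinase complex, differed by 0.16, and by -0.12 without WT replicate 1. In the class III PI3 kinase complex 4 of 8 genes had a lower mean. Uvrag, a partner of Becn1, read 9.96 and 10.15 in WT and 9.90 and 9.80 in Hif1a-/- cells, a difference of -0.21 with groups that did not overlap, or -0.11 without WT replicate 2. Atg14, the partner that directs the complex to new autophagosomes, differed by 0.061, by -0.24 without WT replicate 1 and by -0.11 without Hif1a-/- replicate 1.

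The 20 genes of Atg8 conjugation and membrane growth split into 11 lower and 9 higher means. They ran from Atg7, the activating enzyme of conjugation, at -0.19 to Atg2b, a lipid transfer protein, at 0.19. Both turned without WT replicate 1, to 0.084 for Atg7 and -0.022 for Atg2b. Of 14 lysosomal genes and regulators 9 had a lower mean. Mitf, a relative of the lysosomal regulator Tfeb, differed by -0.27, and by -0.028 without Hif1a-/- replicate 1. Ctsl, a lysosomal protease, read 9.50 and 9.86 in WT and 10.05 and 10.01 in Hif1a-/- cells. Both Hif1a-/- arrays were above WT, with a difference of 0.35 ± 0.16 (SE) and a 95% interval from -0.026 to 0.73. It was 0.17 without WT replicate 1 and 0.53 without WT replicate 2.

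**Figure D4:**
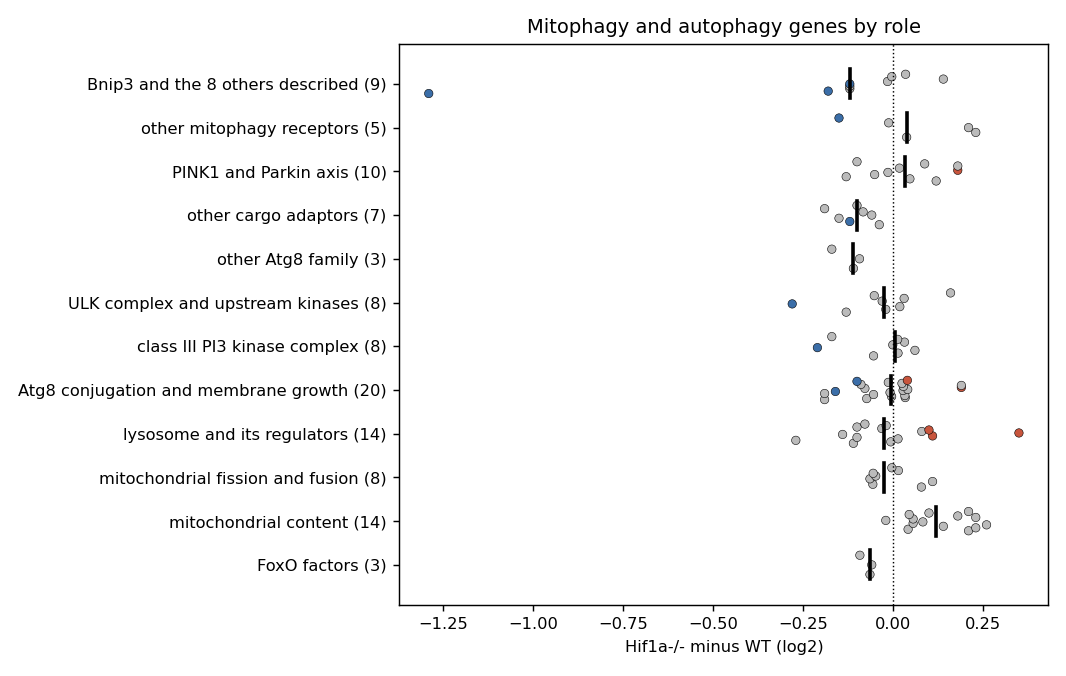
Difference between genotypes (Hif1a-/- minus WT, log2) of each measured gene, by role, with the number measured in brackets; blue points have genotypes that do not overlap with Hif1a-/- lower, red points the same with Hif1a-/- higher, grey points overlap, and black bars are medians. Bnip3 lies at -1.29, and the other genes lie between -0.28 (Rb1cc1) and 0.35 (Ctsl).

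The genes of what mitophagy acts on were counted too. Of 14 genes listed for mitochondrial content, such as import subunits, porins and matrix chaperones, 13 had a higher mean in Hif1a-/- cells, against 61.4% of all genes. Their median difference was 0.12, and groups overlapped in all 14, as in 15003 of all 19938 genes. Timm44, of the import motor, differed by 0.26 and Vdac3, a porin, by -0.02. The count turned without WT replicate 1, where 10 of the 14 had a lower mean, the median was -0.032 and Timm44 differed by -0.027. Without WT replicate 2 the mean was lower in 0 of the 14, the median was 0.27, Timm44 differed by 0.55 and Vdac3 by 0.077. Phb2, an inner membrane receptor, is in this list and in that of receptors, and differed by 0.21, by 0.44 without WT replicate 2 and by -0.013 without WT replicate 1. The 8 genes of fission and fusion lay between -0.064 (Mief1) and 0.11 (Mff), and Mief1 differed by 0.13 without WT replicate 2 and by 0.021 without Hif1a-/- replicate 2. The FoxO factors, known inducers of Bnip3 and of autophagy genes in other tissues, lay between -0.092 (Foxo4) and -0.059 (Foxo3) with overlapping groups in all 3, and Foxo3 differed by 0.0088 without Hif1a-/- replicate 2.

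The genes with profiles most like that of Bnip3 over the 4 arrays were Mcpt4, Ifi205, Plod2, Ifi209 and Marcks, by Euclidean distance between log2 values centred on each gene's mean. Predicted genes, small RNAs, genes with clone names, and olfactory and vomeronasal receptor genes were left out of this ranking and of the correlation ranking below. Mcpt4, a mast cell protease, was nearest at 0.0846 and read 9.52 and 9.56 in WT and 8.21 and 8.26 in Hif1a-/- cells. Ifi205, of the interferon-inducible Ifi200 family, followed at 0.234, and Plod2, a collagen lysyl hydroxylase, at 0.407. Plod2 read 8.86 and 8.61 in WT and 7.91 and 7.68 in Hif1a-/- cells. Ifi209 and Marcks, a substrate of protein kinase C, lay at 0.464 and 0.468. Pearson correlation was ranked only among the 461 genes with a range of at least 1 log2 unit, which left out Ifi209 and Marcks. Its nearest 5 were Mcpt4, Ifi205, Plod2, P2ry10b and Clec9a, so 3 were shared, and the other 2 were not compared by it. With 4 arrays such likeness says that the genes shared a high and a low pair of arrays.

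**Figure D5:**
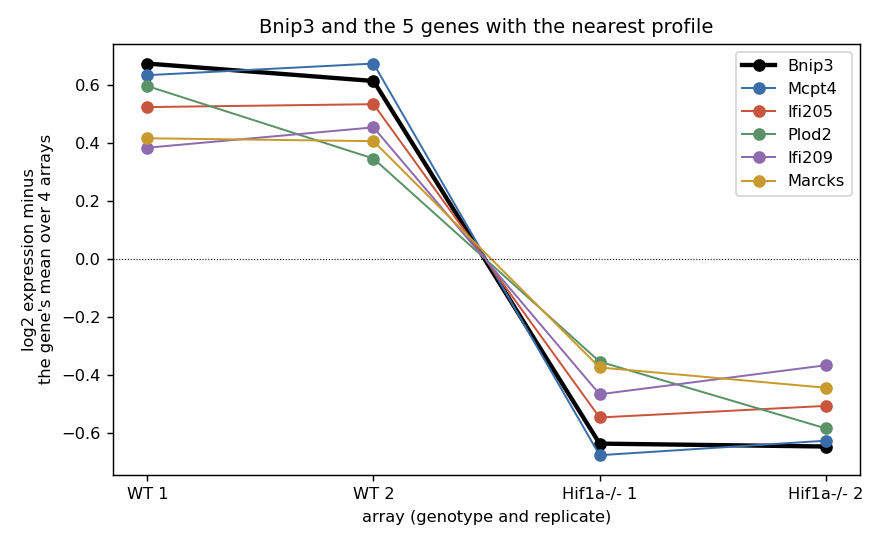
Log2 expression of Bnip3 (black, thick line) and of the 5 genes nearest to it by profile, each centred on its mean over the 4 arrays, by array. All 6 genes are above their mean on both WT arrays and below it on both Hif1a-/- arrays; Mcpt4 is nearest, at a distance of 0.0846.

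Markers of 2 other cell types were set beside Bnip3, and limma called 0 of them. The mean of each of the 11 mast cell markers was lower without Hif1a, against 38.6% of all genes. In 6 of them the genotypes did not overlap, against 9.05% of all genes, and the median difference was -0.62. It was -0.32 without Hif1a-/- replicate 1 and -1.01 without WT replicate 1, where 8 of the 11 were lower. Their summed level on the linear scale ran from 29778 to 33626 in WT and from 22273 to 28954 in Hif1a-/- cells. The proteases Mcpt2, Mcpt1 and Mcpt4 differed by -1.63, -1.57 and -1.30, each more than Bnip3. Without Hif1a-/- replicate 1 the differences were -0.48 for Mcpt2, -0.90 for Mcpt1 and -1.28 for Mcpt4. Cpa3, the mast cell carboxypeptidase, differed by -0.30, and by -0.038 without Hif1a-/- replicate 1. Hdc, the histamine enzyme, differed by -0.13, and by 0.10 without WT replicate 1. All 8 measured of 10 erythroid markers had a higher mean, against 61.4% of all genes, 5 with groups that did not overlap, against 15.7%, with a median difference of 0.49 and a summed level from 9156 to 9791 in WT and from 11458 to 15887 in Hif1a-/- cells. The part of both cell types in the difference of Bnip3 was not tested.

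Hif1a itself read 11.34 and 11.50 in WT and 11.25 and 11.39 in Hif1a-/- cells, with overlapping groups. The difference was -0.095. Neither the deleted part of the gene nor the probe positions are given, so whether this probe set can check the genotype labels is not known.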

How the data were processed

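Per the submitters' processing notes, the authors deposited log2 expression values made with Affymetrix Expression Console 1.1 and RMA, which corrects background, normalizes arrays by quantiles and summarises probes; no further settings were stated in the sources used here. RMA draws dim differences together and removes changes in total RNA. Columns were grouped by the genotype in the sample titles, and 0 columns were left unused. Of 35556 probe sets, 21789 carried 1 gene symbol in the platform annotation, 1621 several, and 12146 were unnamed here. The highest-mean set stood for each of 19938 genes, 19856 of them found in the RefSeq table of GRCm38.p6.

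Genes were fitted in R 4.3.3 by limma 3.58.1 (lmFit, eBayes) on genotype alone, over all 4 arrays, with 2 residual and 4.46 prior degrees of freedom, and Benjamini-Hochberg adjustment over all genes at 0.05; the same fit gave SEs and 95% intervals. The procedure was tested on simulated data. The genes and lists were chosen with earlier results of these data known. The text names the 9 measured genes, the lowest and highest difference of each pathway list and the 5 genes nearest to Bnip3; other genes, among them the cell type markers and sex-linked genes, were added once their values had been seen. Alternatives were a filter at the 25th percentile, 2 rescalings, the mean of all probe sets, all probe sets, a variance trend with robust fitting, the replicate number as a block, and each array left out.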

Additional observations from a re-analysis of the deposited data

How the results depend on the processing

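The difference of Bnip3 stayed between -1.31 and -1.26 when each array was left out, and between -1.31 and -1.28 under the filter, both rescalings, the variance trend and the block; the mean of its probe sets gave -1.12. Limma called it with the replicate number as a block and without either WT array, and under no other alternative; without a WT array the lone one is assumed to vary like the Hif1a-/- arrays, so these calls support nothing. The samples share only a number: the correlation of same-numbered deviations from the group means was -0.00719 over genes. The replicate block raised the genes called from 0 to 47, Bnip3 alone among the 9, and left the difference of Bnip3 at -1.29. The variance trend called 2 genes, and leaving out 1 array called between 2 and 1442, most without WT replicate 2 (1442) and WT replicate 1 (349), against 2 without either Hif1a-/- array; the causes were not tested. After a second quantile normalization Map1lc3b differed by 0.0052 and Becn1 by 0.0011, the 2 of 48 values of the other 8 genes under such alternatives that turned. Of 32 values with 1 array left out, 7 turned. The ranges were -0.36 to 0.12 for Fundc1, -0.15 to 0.12 for Map1lc3b, -0.38 to 0.65 for Gabarapl1, -0.12 to 0.11 for Becn1 and -0.10 to 0.17 for Ulk1. Counted only where groups did not overlap, 3 of the 9 genes and 6 of the 75 others were lower, in place of 7 and 45. Of all genes 9.05% lay so, in place of the 38.6% with a lower mean. The median standard error over all genes was 0.14, which limits what 2 arrays per genotype can show.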
